A study of Mus musculus with 3 samples.

Results

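The 76 ribosomal protein genes of the mouse described here are all RefSeq protein-coding genes whose symbol has the form Rpl, Rps or Rplp followed by a number, with an optional a or x and a last digit (46 of the large subunit, stalk proteins included, and 30 of the small), out of 21779 protein-coding genes. The rule used gene names only, not measured values, but it was chosen with earlier results of these data known. LMX1B, a LIM homeodomain transcription factor that gives the limb its dorsal character, was immunoprecipitated with the polyclonal antibody BMO8 from pooled fore- and hindlimb buds of C57BL/6 embryos at embryonic day 12.5, in 2 runs of 48 limb buds each. The chromatin was fixed with 1% formaldehyde for 15 min and sheared to 300 to 500 bp. One sample is called the first ChIP; its track name marks the limb buds as wild-type (WT). The other, titled as a validation of BMO8, is called the validation ChIP; its track name gives no genotype. The antibody label is the same for both, and nothing says whether the chromatin came from separate preparations. Input DNA, pooled from wild-type and mutant chromatin, has no interval list here and was not analysed here.

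Ribosomal proteins are the protein building blocks of the large and small subunits of the cytoplasmic ribosome. Their genes are short, are transcribed in nearly every cell, and are among the most heavily transcribed genes of dividing tissue. Many of their transcripts begin with a run of pyrimidines, the oligopyrimidine tract, through which mTOR signalling adjusts their translation. Several genes carry small nucleolar RNAs (snoRNAs) in their introns, and the mouse genome holds many processed pseudogenes copied from them.

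Each ChIP is known from 1 list of intervals (peaks) called by the authors, with a summit and a whole-number score for each. The first ChIP lists 1287 intervals and the validation ChIP 4501. Scores have no stated unit and rank intervals only within their own list. No read counts come with the lists, so depth is unknown. With 1 sample each there are no replicates, so no test was made. The 95% Wilson intervals below cover counting error over genes or intervals, which are not replicates.

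The starts of 8 members are shown because most intervals at members lay around a gene start; the stretches end before the typical first-ChIP summit. Shown, 5′ to 3′ on the gene's strand, are 100 bases before the annotated start and the first 20 transcribed bases (RefSeq, GRCm38.p6, the assembly of mm10). Capitals mark the run of pyrimidines that holds the first transcribed base, and a sequence with no capitals has a purine there. The first 6 are the members with an interval in both lists that have the highest validation scores and a promoter entry (Rpl11 tied with Rps18 and Rps3 and came first in the alphabet), and the last 2 have no interval in either list.

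Rps7 (chr12:28635934-28636053, minus strand): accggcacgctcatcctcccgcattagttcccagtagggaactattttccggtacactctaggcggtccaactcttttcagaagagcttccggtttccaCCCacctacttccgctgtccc
Rpl27 (chr11:101442145-101442264, plus strand): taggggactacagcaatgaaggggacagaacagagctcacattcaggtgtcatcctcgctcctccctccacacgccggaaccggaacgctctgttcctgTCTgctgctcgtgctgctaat
Rpl13 (chr8:123102250-123102369, plus strand): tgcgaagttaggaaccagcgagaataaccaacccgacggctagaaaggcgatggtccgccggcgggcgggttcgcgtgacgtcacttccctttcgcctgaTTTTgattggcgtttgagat
Rpl6 (chr5:121204401-121204520, plus strand): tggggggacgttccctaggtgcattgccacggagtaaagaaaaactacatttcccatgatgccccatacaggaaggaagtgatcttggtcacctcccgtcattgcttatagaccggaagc
Rps15a (chr7:118116128-118116247, minus strand): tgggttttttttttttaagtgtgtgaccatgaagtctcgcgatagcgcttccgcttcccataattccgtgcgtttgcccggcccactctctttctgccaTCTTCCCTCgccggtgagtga
Rpl11 (chr4:136053374-136053493, minus strand): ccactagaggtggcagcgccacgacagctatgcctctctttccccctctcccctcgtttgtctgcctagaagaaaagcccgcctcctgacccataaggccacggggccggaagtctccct
Rpl10 (chrX:74270716-74270835, plus strand): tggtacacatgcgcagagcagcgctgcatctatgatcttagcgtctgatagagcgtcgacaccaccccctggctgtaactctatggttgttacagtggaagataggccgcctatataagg
Rpl13a (chr7:45128726-45128845, minus strand): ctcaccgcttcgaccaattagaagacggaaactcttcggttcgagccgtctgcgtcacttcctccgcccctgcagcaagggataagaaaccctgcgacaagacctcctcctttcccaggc

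The stretches shown for Rps7, Rpl13, Rps15a and Rpl11 lay wholly inside the interval of each list. That of Rpl6 lay wholly inside the validation interval and for 104 of its bases inside the first. At Rpl27 the first interval covered 108 of the bases and the validation interval none, because it began downstream of the start. The ETS core CCGGAAG, on either strand, lay at bases -14 to -8 of Rps7, 7 to 13 of Rpl11 and 13 to 19 of Rpl6, counted from 1 at the first transcribed base. Rps15a, with the longest tract of the 8 (9 bases), holds TCTCGCG, one side of a palindrome found at active promoters, at -66 to -60. The GC box GGGCGG lay at -37 to -32 of both Rpl13 and Rpl13a, which has no interval. CCAAT lay at 6 to 10 of Rpl13 and at -87 to -83 of Rpl13a.

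Intervals of the first ChIP lay at most of the 76 genes. With an interval midpoint within 1 kb of the gene body, 40 members (52.6%, 95% Wilson interval 41.6 to 63.5) had a first-ChIP interval, against 3.03% of all protein-coding genes. A validation interval lay at 16 members (21.1%, 13.4 to 31.5), against 7.17%. First-ChIP intervals that overlapped a validation interval by at least 1 bp, called shared, lay at 14 members (18.4%, 11.3 to 28.6), against 1.19%. A first-ChIP-only interval lay at 26 members (34.2%, 24.5 to 45.4), against 1.95%, and a validation-only interval at 2 (2.63%, 0.725 to 9.10), against 6.59%. So 4 of the shares lay above those of all genes. The validation-only share was lower, but it rests on 2 members and its Wilson interval contains the 6.59% of all genes.

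The members are short, which leaves less room for an interval. Their bodies ran from 0.982 to 11.774 kb, with a median of 3.17 kb against 17.2 kb for all protein-coding genes. Of the 8728 protein-coding genes no longer than the longest member, 1.7% had a first-ChIP interval, 2.52% a validation interval and 0.367% a shared one. The 76 members are among these genes. They make up 40 of the 148 with a first-ChIP interval, 16 of the 220 with a validation interval and 14 of the 32 with a shared one. In the same genes the share was 1.33% for first-ChIP-only and 2.18% for validation-only intervals, close to the 2.63% of the members. Per length of gene body and flanks, members held 94.1 first-ChIP intervals per Mb, and all protein-coding genes 0.632. For the validation ChIP the densities were 37.6 and 2.09 per Mb. Longer genes add length away from their starts, and no density was computed for the 8728 shorter genes.

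No member had more than 1 interval of a list. All 14 members with intervals in both lists had them overlapping, which is 35% of the 40 and 87.5% of the 16. Over the whole lists, 54.9% of first-ChIP intervals and 15.6% of validation intervals were shared, so the members lay below the first list and above the validation list. Both members with a validation interval alone encode large-subunit proteins: Rpl23a, whose product sits at the exit of the nascent peptide, with a score of 12, and Rpl38, which is needed for normal patterning of the axial skeleton in mice, with 13. Of the 26 first-ChIP-only members, Rpl34 had the nearest validation interval, 6.99 kb away, and Rpl7a the farthest, 1886 kb away. So no first-ChIP-only interval had a validation interval directly beside it.

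First-ChIP scores at the members were high within their list. They ran from 16 to 75 with a median of 32.5, and 36 of the 40 (90%) were above 20, the median of all 1287 scores; elsewhere in the list 43.9% were. Members took 26 of the 130 intervals with a score of at least 30, 13 of the 38 with at least 40 and 9 of the 18 with at least 50. They were also wide, with a median of 679.5 bp against 384 bp for the other intervals.

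The highest member score was that of Rps7 (chromosome 12, 28630847 to 28635953), a small-subunit protein needed for processing of the small subunit's rRNA: 75, rank 4 of 1287, at 28635355 to 28636167. Its validation interval, at 28635551 to 28636243, had a score of 16, the highest of the members there, and rank 605 of 4501. Rpl11 (chromosome 4, 136049354 to 136053393) had 61 in the first ChIP, rank 8, and 10 in the validation ChIP, rank 2592. Rpl5 (chromosome 5, 107900508 to 107909005) had 53 in the first ChIP and no validation interval. Rpl5 and Rpl11 bind the small rRNA of the large subunit and together restrain Mdm2 when ribosome assembly is disturbed. Rps6, the small-subunit protein whose phosphorylation is a standard readout of mTOR signalling (chromosome 4, 86854099 to 86857367), had 60, rank 9, in the first ChIP and 7, rank 4447, in the validation ChIP. These genes stood near the top of the first list. In the validation list Rps7 ranked within the upper part, and Rpl11 scored below the list median of 11. Rps6 was near the bottom there, and Rpl5 was not listed. Tied scores were all given the best rank of the tie.

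Among the remaining members with a first-ChIP score of at least 50, Rpl27 (55), Rpl13 (53) and Rpl8 (50) also had validation intervals, with scores of 13, 12 and 11. Rpl8 is a large-subunit protein next to the catalytic centre. Rpl32 (54) and Rpl7a (51), both of the large subunit, had first-ChIP intervals alone, as did Rpl5. Elsewhere in the genome, all 9 first-ChIP intervals with such scores were shared. The next in order was Rps15, a small-subunit protein, with 48 and no validation interval.

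The other shared members had lower first-ChIP scores than those just described, but all scored above the list median of 20. Rpl23, which like Rpl5 and Rpl11 can bind Mdm2, had 35 in the first ChIP and 9 in the validation ChIP, and Rps15a had 33 and 12. Rps18, in the head of the small subunit, had 30 and 10. Rps3, at the entry of the mRNA channel, had 27 and 10. The lowest first-ChIP scores of the shared members, 22 each, were those of Rpl6 and Rpl7, with validation scores of 12 and 11. Over the 14 genes the validation scores spanned 7 to 16 while the first-ChIP scores spanned 22 to 75. Across these genes the scores correlated weakly (Spearman 0.112, Pearson 0.214), which is a description only, since all pairs come from the same 2 libraries.

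**Figure D1:**
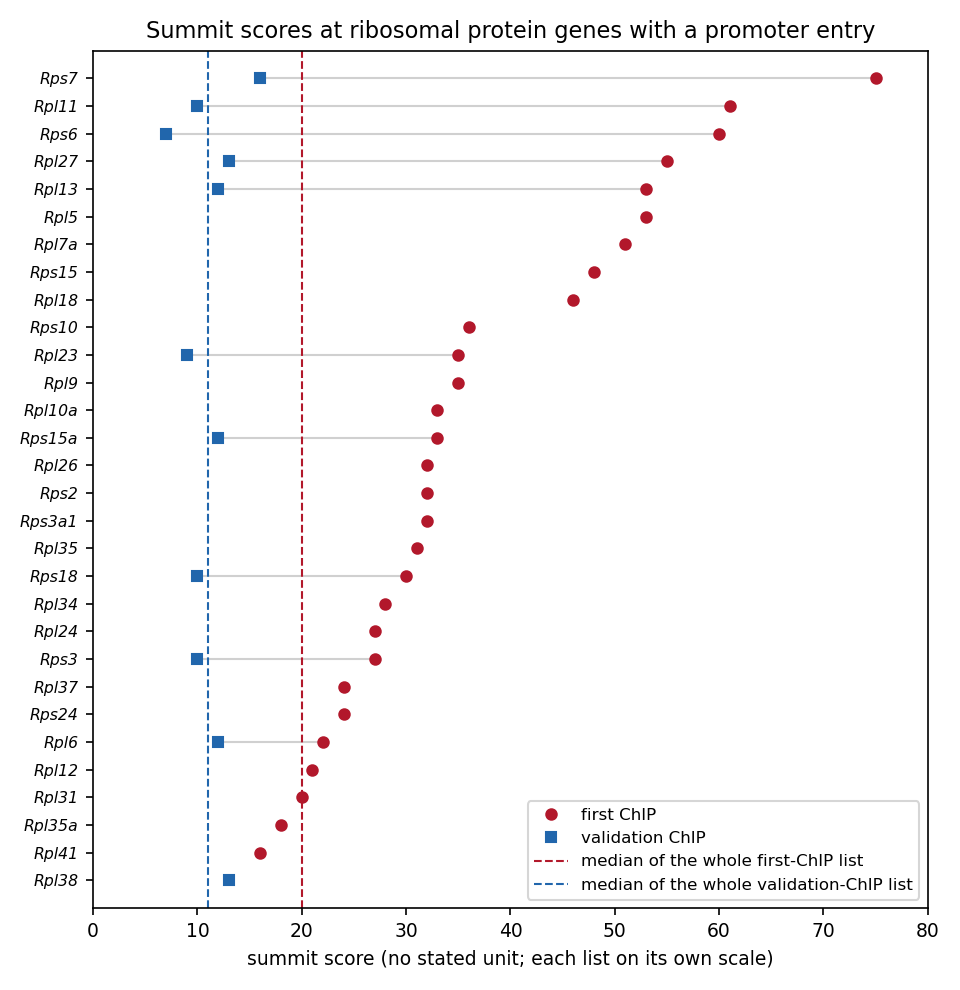
Summit score (horizontal axis, no stated unit, each list on its own scale) at each of the 30 ribosomal protein genes with an interval and a promoter entry; red circles are the first ChIP, blue squares the validation ChIP, grey lines join both values of a gene, and dashed lines are the medians of the whole lists (20 and 11). First-ChIP scores reach 75 and lie mostly right of their list's median, while validation scores stay between 7 and 16 around theirs.

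The plot of scores by gene shows that the lists rank the members differently. No member reached a validation score of 20, which 339 intervals of that list did, and the members' median of 12 was next to the list median of 11. Shared pairs with a first-ChIP score of at least 30 had a median validation score of 12 at the 11 members and of 26 at the 91 pairs elsewhere. At the same scores, 42.3% of member intervals were shared (11 of 26) and 87.5% of the others (91 of 104). With a bound of 20 in place of 30, the percentages were 36.8% and 72.4%. The lists therefore placed the same member intervals differently, and the difference between these shares was not tested.

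Place in the gene could be read for the 56 members with a promoter entry in RefSeq, which gives the strand; the other 20 have none. First-ChIP midpoints lay within 500 bp of the gene start at 27 of the 56 (48.2%), against 1.17% of the 17492 protein-coding genes with an entry. Validation midpoints did at 9 (16.1%), against 1.77%. Of the 29 first-ChIP intervals at these members 27 (93.1%, Wilson interval 78.0 to 98.1) were so placed, and 9 of the 11 validation intervals (81.8%, 52.3 to 94.9). None lay within 500 bp of the far end of the gene. For other protein-coding genes the shares were 30% of 594 and 15.8% of 1895 gene-interval pairs. Those genes are longer and offer more room away from the start. An interval near several genes counts once for each, so a member interval can recur there from a neighbouring gene.

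The exceptions lay at starts too. Rpl18 and Rps2 had first-ChIP midpoints 2788 and 2079.5 bp into the gene body, yet 184 and 137.5 bp from the start in the promoter table, because other transcripts extend the body upstream. At Rpl18 the midpoint was also nearer to an end of another protein-coding gene than to either end of Rpl18, the only such case among the members. Likewise the validation midpoint of Rpl38 lay 703.5 bp into the body and 58.5 bp from the tabulated start. Counted from the nearest tabulated start, all 29 first-ChIP midpoints and 10 of 11 validation midpoints were within 500 bp; the exception was Rpl27, at 537 bp.

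First-ChIP intervals lay on the transcribed side of the start. All 27 midpoints within 1 kb of the gene start were downstream of it, by 5 bp (Rpl35a) to 376.5 bp (Rpl27), with a median of 198.5 bp and quartiles of 116.75 and 220.75 bp. Their summits lay downstream in 27 of 27 as well, with a median of 161 bp. At other protein-coding genes, 124 of 223 midpoints (55.6%) were downstream, with a median of 19 bp and quartiles of -196.5 and 222.5 bp. Among intervals scoring at least 32.5, the members' median, 13 of 13 at members and 3 of 8 at other genes were downstream. From the nearest tabulated start, 29 of 29 and 120 of 240 were downstream. In these counts, and in those of the validation ChIP below, a member interval near a neighbouring gene can count for that gene too. It is then placed from that gene's own start. How many of the other-gene intervals are member intervals was not counted, so the groups are not fully separate. Of the 27 intervals 25 spanned the start; those at Rpl31 and Rpl41, which both encode large-subunit proteins, began downstream of it.

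**Figure D2:**
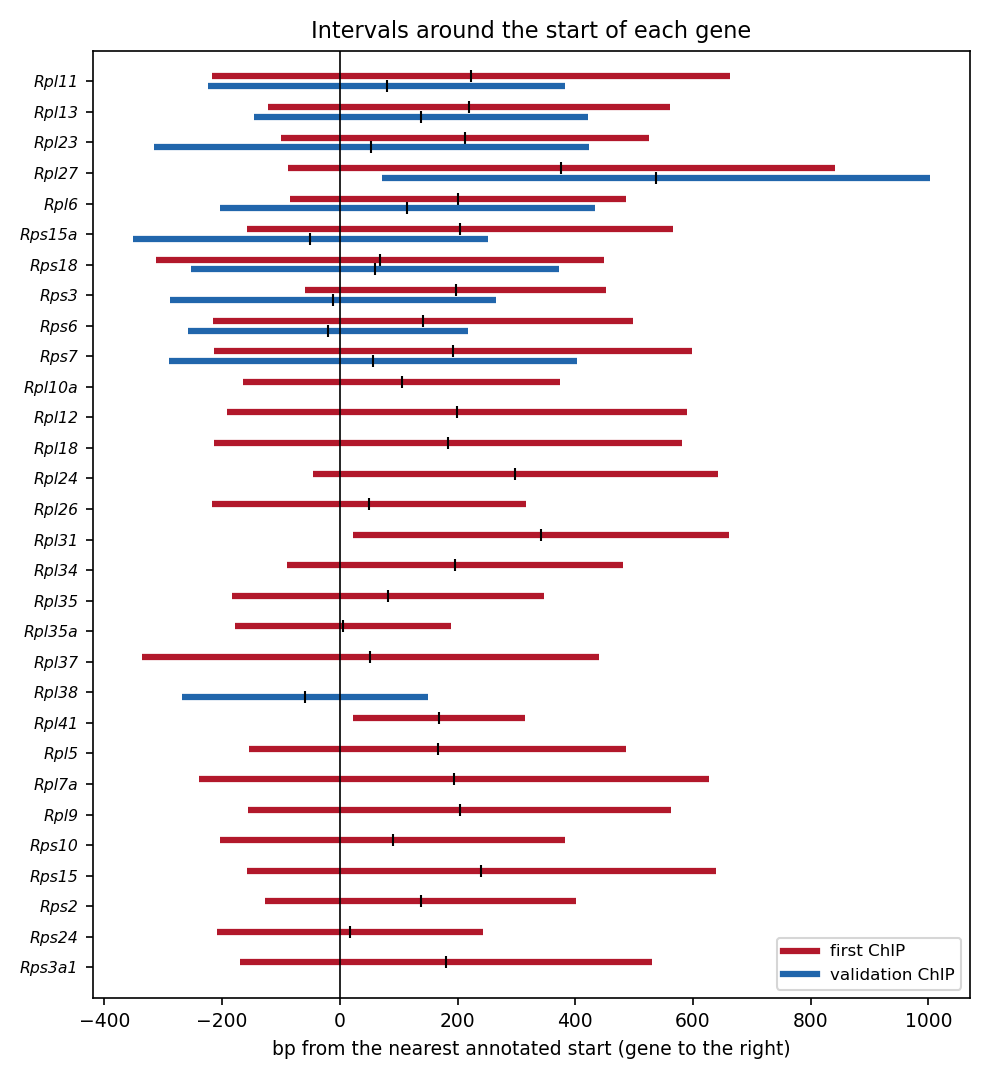
Extent of each interval (bars) and its midpoint (black ticks) in bp from the nearest annotated start, with the gene to the right, at the 30 members that have an interval and a promoter entry; red is the first ChIP, blue the validation ChIP, and the 10 members with a shared interval are at the top. Every first-ChIP midpoint lies right of the start, and at the 10 shared members the validation midpoint lies left of the first-ChIP midpoint except at Rpl27.

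Validation intervals sat farther upstream. The 11 midpoints ran from -50 to 703.5 bp with a median of 59 bp, and 8 (72.7%) were downstream of the start, against 119 of 413 (28.8%) and a median of -133 bp at other protein-coding genes. Among the 10 shared pairs with a known strand, the validation midpoint was upstream of the first-ChIP midpoint in 9, with a median difference of -139.5 bp over the 10, as the plot of intervals around the starts shows. The shift was largest at Rps15a, from 204.5 to -50 bp, and at Rps3, from 196.5 to -12 bp. Rps6 moved from 141.5 to -20 bp and Rps7 from 192 to 56 bp, while at Rps18 the midpoints were 9 bp apart. Rpl27 went the other way, from 376.5 to 537 bp. At other genes the validation midpoint was upstream in 22 of 38 pairs, with a median difference of -18.25 bp. Summits of the 14 member pairs lay 16 to 245 bp apart, with a median of 80 bp against 64 bp for all shared pairs.

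**Figure D3:**
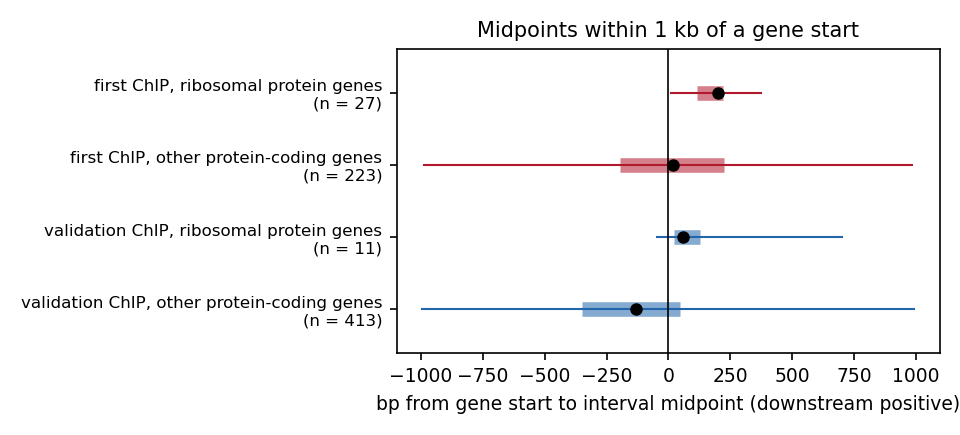
Distance in bp from the gene start to the midpoint (downstream positive) of intervals within 1 kb of a start, for ribosomal protein genes and other protein-coding genes in each list; dots are medians, thick bars the quartiles and thin lines the full range. The members' medians, 198.5 and 59 bp, lie right of those of other genes in the same list, 19 and -133 bp. An interval near several genes counts at each, so other genes can include member intervals.

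For members without a strand only the distance to the nearer gene end is known. Of their 11 first-ChIP midpoints, 8 were within 500 bp of an end and all but that of Rpl30 lay inside the body. The exceptions were Rpl17 (1602.5 bp), Rpl29 (823.5 bp) and Rpl36 (647 bp). All 5 validation midpoints, those of Rpl7, Rpl8 and Rpl23a among them, were within 500 bp of an end.

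By role, the large subunit had first-ChIP intervals at 27 of 46 genes (58.7%) and the small at 13 of 30 (43.3%). Validation intervals lay at 9 (19.6%) and 7 (23.3%), and shared ones at 7 of each. Median first-ChIP scores were 32 and 33. The stalk, the flexible arm of the large subunit that recruits translation factors, holds Rplp0, Rplp1, Rplp2 and Rpl12, of which Rpl12 alone had an interval, in the first ChIP, with a score of 21. Around the tunnel through which the new peptide leaves, Rpl17 (46), Rpl26 (32), Rpl31 (20) and Rpl35 (31) had first-ChIP intervals and Rpl23a a validation interval, while Rpl4, Rpl19 and Rpl39 had none. At the mRNA entry Rps2 (32) and Rps3 had first-ChIP intervals and Rps9 had none. For stalk, tunnel and mRNA entry, with 4, 8 and 3 genes, the first-ChIP shares were 25%, 50% and 66.7%. Their validation shares were 0%, 12.5% and 33.3%. Of 19 genes mutated in Diamond-Blackfan anaemia, an inherited failure of red cell production, 13 had a first-ChIP interval (68.4%, against 52.6% of all members). A validation interval lay at 5 (26.3%, against 21.1%). Rps19, the gene most often mutated in this anaemia, had neither. Differences between these groups and all members were not tested.

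Of all protein-coding genes, 3.03% had a first-ChIP interval and 7.17% a validation interval, so most genes had neither. Neither list had an interval at 34 members (44.7%). Among them were Rplp0 and Rplp2 of the stalk, Rpl4 and Rpl19 of the peptide exit, Rps9 of the mRNA entry, Rps19, and all 4 members on the X chromosome (Rpl10, Rpl36a, Rpl39 and Rps4x), where 0.208% of the 963 protein-coding genes had a first-ChIP interval and 1.25% a validation interval. On chromosome 7, which holds 14 members, 4 had a first-ChIP interval, against 2.02% of its 2025 protein-coding genes. The 40 members with a first-ChIP interval and the 36 without had median lengths of 3.62 and 2.70 kb. They hosted annotated snoRNA genes in 15 (37.5%) and 14 cases (38.9%), and another protein-coding gene lay within 1 kb of 16 (40%) and 13 (36.1%). So the groups were within a few percentage points of each other in snoRNA hosting and in close neighbours. For the validation ChIP, 2 of 16 members with an interval (12.5%) and 27 of 60 without (45%) had such a neighbour.

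Promoter sequence (250 bases before to 50 after the start, both strands, 1 start per gene) was described for the same 56 members. The homeodomain cores TAATTA and AATTAA, letters that LIM homeodomain proteins are known to favour, were in 1 (1.79%) and 2 (3.57%) of them, against 4.69% and 9.82% of 17492 promoters. They can overlap each other by 5 letters. TAATTA was in 0 of the 29 members with a first-ChIP interval and 1 of the 27 without, and AATTAA in 1 of each. Of the 10 shared members, 0 held TAATTA and 1 held AATTAA. The ETS core CCGGAAG was in 22 (39.3%) against 11.9%, and TCTCGCG in 13 (23.2%) against 3.65%. An oligopyrimidine tract (C at the start followed by at least 4 pyrimidines) was in 12 (21.4%) against 2.17%. The tract was read at the annotated start only, so its count depends on the exact base annotated. That base was not a pyrimidine at 28 of the 56 members and at 13453 of the 17492 promoters. The GC box GGGCGG was in 58.9% against 46.3%, CCAAT in 30.4% against 39.2% and TATAAA in 10.7% against 13.3%. CACGTG was in 8.93% against 7.91%, and the YY1 core ATGGCGGC in 7.14% against 3.21%. Member promoters also differed in composition, with a median of 21 CG pairs against 13 in all promoters. How far this bears on the motif shares was not tested.

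The same letters were counted in members with and without a first-ChIP interval. The ETS core was in 13 of 29 and 9 of 27, TCTCGCG in 8 and 5, and the pyrimidine tract in 5 and 7. TATAAA was in 1 of 29 and 5 of 27. Median GC content was 57% and 58%. These matches describe the window, which ends before the typical first-ChIP summit, and say nothing of binding.

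Other gene groups of protein synthesis and turnover were compared next. Of 39 translation factor genes, 7 had a first-ChIP interval (17.9%), with a median score of 20, and 5 a validation interval (12.8%). Eif3f and Eif3h, subunits of an initiation factor, had shared ones. Of 40 ribosome biogenesis genes, 4 had a first-ChIP interval (10%) and 3 a validation interval (7.5%). Mitochondrial ribosomal protein genes, which serve a separate ribosome, had 5 and 4 of 78 (6.41% and 5.13%), and only Mrpl11 had a shared one. Proteasome subunit genes had 2 and 0 of 39. Genes of adult liver and gut had 0 and 1 of 20, and blood genes 0 and 1 of 15. Each of these lists had lower shares than the ribosomal protein genes in both ChIPs, although all but the blood genes had longer median bodies. How far transcription moves with the intervals was not tested, because no expression was measured here.

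**Figure D4:**
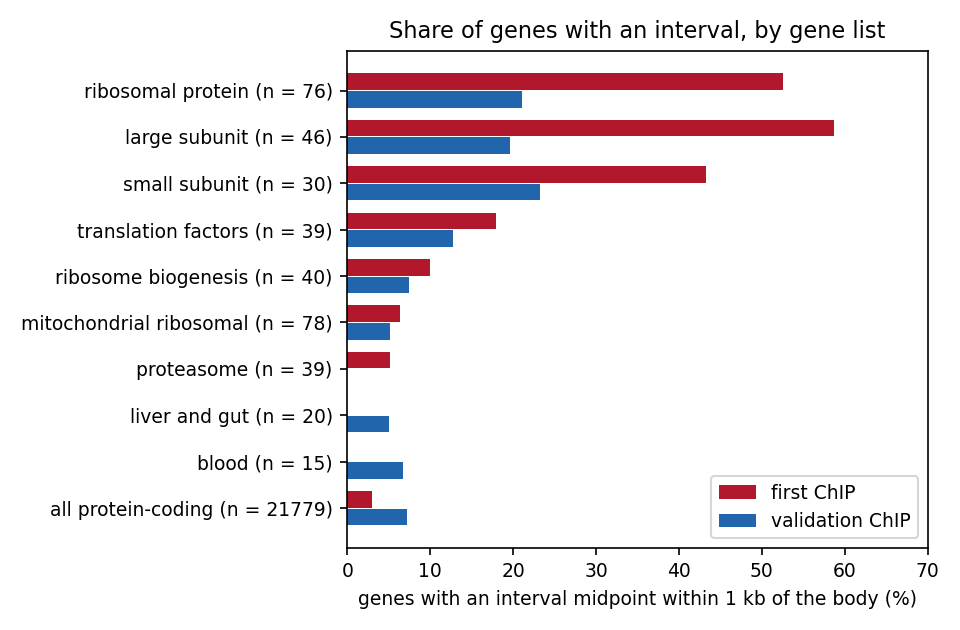
Percent of the genes of each list (n in brackets) with an interval midpoint within 1 kb of the gene body; red bars are the first ChIP and blue bars the validation ChIP. The ribosomal protein genes, at 52.6% and 21.1%, exceed every list of other genes and all protein-coding genes, at 3.03% and 7.17%. The large and small subunit bars are parts of the ribosomal protein genes.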

How the data were processed

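Per the submitters' processing notes, the authors used BWA and the genome build mm10. Which peak caller and threshold were used, and in which versions, was not given in the sources used here. The authors deposited, for each ChIP sample, a track of intervals and a track of summits, each summit with a whole-number score of unstated unit and normalization. The validation sample's file repeats the first ChIP's tracks with 1 summit position changed, at no member; they were read once. It also has a track named Active Regions (735 regions), which holds by coordinates the 14 shared first-ChIP intervals at members and no other member interval.

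Genes came from a RefSeq table of GRCm38.p6, the assembly behind mm10; 394 entries that start before 3 Mb on autosomes and X or lie off the assembled chromosomes were left out. Promoter sequence and strand came from RefSeq on the same assembly. The gene start is the end of the gene body on the strand's side. Coordinates count from 1. Gene finding and overlap were tested on simulated data with Python 3.11.15, pandas 2.3.3, NumPy 2.4.6 and SciPy 1.17.1.

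The members, the lists and the settings were chosen with earlier results of these data known. Named genes were those with a shared or validation-only interval, those with the 10 highest scores of each list, members of the fixed role groups, and, in comparison lists, genes with a shared interval; the exceptions to a stated pattern were named after their values were seen. Some members are counted but not reported here by name.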

Additional observations from a re-analysis of the deposited data

How the results depend on the processing

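Of 56 values under other settings, 52 stayed within 1.5 times the main count or within the Wilson interval of the main percentage; 7 of the 56 were added after seeing the data. The others follow. With scores at or above the median of each list, 9 members had a shared interval, as fewer intervals were compared. Within 250 bp of the gene start lay 75.9% of first-ChIP intervals, and within 500 bp of the nearest annotated start 100%. Within 1 kb of the gene start lay 100% of validation intervals. No paired analysis was possible because each ChIP is 1 sample and the labels give no replicate numbers; for the same reason no replicate could be left out. Depth is unknown, so an absent interval does not show absent signal. The input DNA was not analysed here.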

Other observations

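Pseudogenes and paralogs of the ribosomal protein genes were counted in the same way. Of 305 RefSeq pseudogenes named after members, none lay within 1 kb of a first-ChIP midpoint and 1 lay as close to a validation midpoint, Rpl17-ps3, with a score of 12. Of all protein-coding genes, 3.03% and 7.17% lay so close to a midpoint of these lists. The share over all pseudogenes is not given here. Of 8 paralogs and partners, Rack1, which encodes a scaffold on the small subunit, had a first-ChIP interval with a score of 27 (12.5% of the 8, against 3.03% of all protein-coding genes), while Rpl22l1, Rpl36al, Rps27l, Rpl39l, Rpl3l, Rpl7l1 and Rpl10l had none. No validation interval lay at any of the 8.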
